A study of Homo sapiens with 6 samples.

Results

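The genes described here are MYC and 8 genes of polyamine metabolism, ODC1, AMD1, SRM, SMS, SAT1, AZIN1, OAZ1 and OAZ2, which are 9 of the 24462 gene symbols counted in the study. The 9 were picked by name for their place in the pathway, with earlier results of the same libraries known. SRM in particular had been seen to be low with the miR-200a mimic and high again where an ELK3 plasmid was added, so its values are given as a description and without a test. All 9 symbols were found in each library, and all 9 were among the 12650 genes with enough reads to be tested.

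RNA came from MDA-MB 231, a human triple-negative, claudin-low breast cancer cell line, harvested 48 h after transfection. The NC mimic group received a negative control mimic, and the miR-200a group received the miR-200a mimic at 100 nM. The miR-200a plus ELK3 group received the same mimic at 100 nM together with 30 ng of an ELK3 expression plasmid. The study names this plasmid pcDNA3.1-Flag-ELK3, and the treatment labels name it pcDNA3.1 Hygro(+)-ELK3. Libraries of this last group are called ELK3-labelled here, because their ELK3 reads, given further on, are not higher and may not register the plasmid. By qRT-PCR and western blot, the study reported ELK3 mRNA and protein back at the control level with the plasmid. Each of the 3 groups had 2 libraries, made with QuantSeq, a kit that reads polyadenylated RNA close to its 3′ end. ELK3 is an ETS-family transcription factor whose mRNA the study proposed as a target of miR-200a, and the plasmid group asks which changes are undone when ELK3 is supplied from a cDNA without its own 3′UTR. The labels name a single cell line and no vector control for the plasmid, and nothing in them says that the 2 libraries of a group came from separate cultures, so the p-values measure the spread between these libraries, which may be technical.

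Polyamines (putrescine, spermidine and spermine) are small positively charged molecules that bind RNA and DNA and are needed for growth. Ornithine decarboxylase (ODC1) makes putrescine, S-adenosylmethionine decarboxylase (AMD1) supplies the aminopropyl donor, spermidine synthase (SRM) and spermine synthase (SMS) attach aminopropyl groups, and spermidine/spermine N1-acetyltransferase (SAT1) marks polyamines for export or breakdown. The antizymes OAZ1 and OAZ2 bind ODC1 and send it to the proteasome, the antizyme inhibitor AZIN1 frees it, and MYC, a transcription factor that binds E-box sequences with its partner MAX, is a textbook activator of ODC1 and of other genes of the pathway.

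The sequences below are shown because they are the ones through which the transfected mimic, MYC or an ETS factor could be read against these genes. The mature miRNA is given with its seed (bases 2 to 8) in capitals, as RefSeq lists it on GRCh38.p14 at chr1:1167916-1167937 on the plus strand, and hsa-miR-141-3p, at chr12:6964155-6964176, has the same seed.
hsa-miR-200a-3p: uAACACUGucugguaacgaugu
hsa-miR-141-3p: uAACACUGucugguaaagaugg
The seed's 7-base match, CAGTGTT, occurred in 0 of the 9 genes' 3′UTRs, taking the longest 3′UTR of each gene in GENCODE release 29. The 9 3′UTRs ran from 276 bases in SRM to 2210 in AZIN1. The same letters were present in the 3′UTR of 21.6% of the 11236 tested genes that had one.

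Promoters were read in RefSeq windows from 250 bases before to 50 after a gene start, 300 bases in all, and 7 of the 9 genes had such a window. The E-box CACGTG, which is its own reverse complement, is shown in capitals in SRM, 199 bases before the start, and in ODC1, 29 bases before and 5 bases after the second of its annotated starts. These stretches are on GRCh38.p14, minus strand, at chr1:11060200-11060229, chr2:10448024-10448053 and chr2:10447990-10448019 in the order printed.
SRM E-box: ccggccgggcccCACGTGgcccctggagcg
ODC1 E-box before the start: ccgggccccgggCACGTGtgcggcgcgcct
ODC1 E-box after the start: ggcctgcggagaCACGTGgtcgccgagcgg
CACGTG was present in 7.26% of the 35116 promoter windows. The ETS-type core CCGGAA, searched on both strands (TTCCGG on the other), was present in 17.2% of them, and it is shown in capitals for SRM at chr1:11060238-11060267 and ODC1 at chr2:10448399-10448428, both on the minus strand, and for SAT1 at chrX:23783025-23783054 on the plus strand.
SRM ETS core: gcccagcccgccCCGGAAcccgacccggcc
ODC1 ETS core: gcggtgtcccggCCGGAAccgatcgtggct
SAT1 ETS core: tcacacgggcgcCCGGAAgagagggtggtg
A CCGGAA match was also present in the OAZ2 window, and the windows of SMS, AMD1 and OAZ1 held neither motif. A match describes these letters in this window and is not a binding site.

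The libraries held 3055915 to 4868004 counts in total, with 5.21% to 6.48% in the 10 most abundant genes. A count of 3, taken as the smallest detectable value, corresponded to 0.611 to 0.979 CPM, the count scaled to a common library size, which covers counting error only, and the lowest count among the 9 genes was 117. ELK3, the check of the plasmid group, had 618 and 509 counts after the NC mimic, 493 and 505 counts after miR-200a, and 406 and 337 counts in the ELK3-labelled ones. Its CPM was 152 ± 20.1 (SD, n = 2), 103 ± 0.382 (SD, n = 2) and 87.7 ± 12 (SD, n = 2) in the same order, so ELK3 reads were not higher in the libraries assigned to the plasmid. Against the NC mimic they were lower there, with a log2 fold change of -0.79 (edgeR adjusted p = 0.0117). The plasmid holds the coding region alone, and reads from the 3′ end of its transcript need not fall in ELK3, so this count does not check the plasmid. The cells were checked against markers of the line. VIM, CD44, AXL and CAV1 lay between 195 and 2460 CPM, ESR1 was at 0 counts in all 6 libraries, PGR was at most 0.326 CPM and CDH1 at most 2.45 CPM. The other markers expected to be low were not absent, with EPCAM at 8.69 to 29.1 CPM and ERBB2 at 23.3 to 47.3 CPM. The epithelial genes EPCAM and CDH1 had log2 fold changes of 1.43 (adjusted p = 0.0713) and 3.9 (adjusted p = 0.152) with miR-200a, from 10.9 to 28.8 CPM and from 0.111 to 2.36 CPM in the group means, and neither was called. CD44 fell by 0.61 on the log2 scale against miR-200a (edgeR adjusted p = 0.0151) and by 0.58 against the NC mimic (adjusted p = 0.0181) in the ELK3-labelled libraries, and its part in the results below was not tested. The replicates of that group also lay further apart, with a median absolute log2 difference over the tested genes of 0.33 against 0.19 in the NC mimic pair and 0.15 in the miR-200a pair. In bulk RNA, fewer cells with an mRNA and less of it per cell cannot be told apart.

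With miR-200a alone, SRM was low and none of the other 8 genes passed the test. SRM, the enzyme that converts putrescine to spermidine, had 662 and 480 counts after the NC mimic, 392 and 408 after miR-200a, and 694 and 841 in the ELK3-labelled libraries. Scaled to library size, that was 147 and 157 CPM, then 81.4 and 83.1 CPM, then 164 and 198 CPM. Both miR-200a libraries were below every other library, and both ELK3-labelled libraries were above every other. The group means were 152 ± 6.5, 82.3 ± 1.23 and 181 ± 23.5 CPM (SD, n = 2 each). The fitted log2 fold change of SRM was -0.88 (SE 0.14) in the miR-200a group relative to the NC mimic, a ratio of 0.542, and 1.14 (SE 0.14) for the ELK3-labelled libraries against miR-200a, a ratio of 2.2. From the NC mimic the latter libraries differed by 0.25 (SE 0.14) on the log2 scale. These SRM values are those for which the gene was chosen and no test is attached to them.

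**Figure D1:**
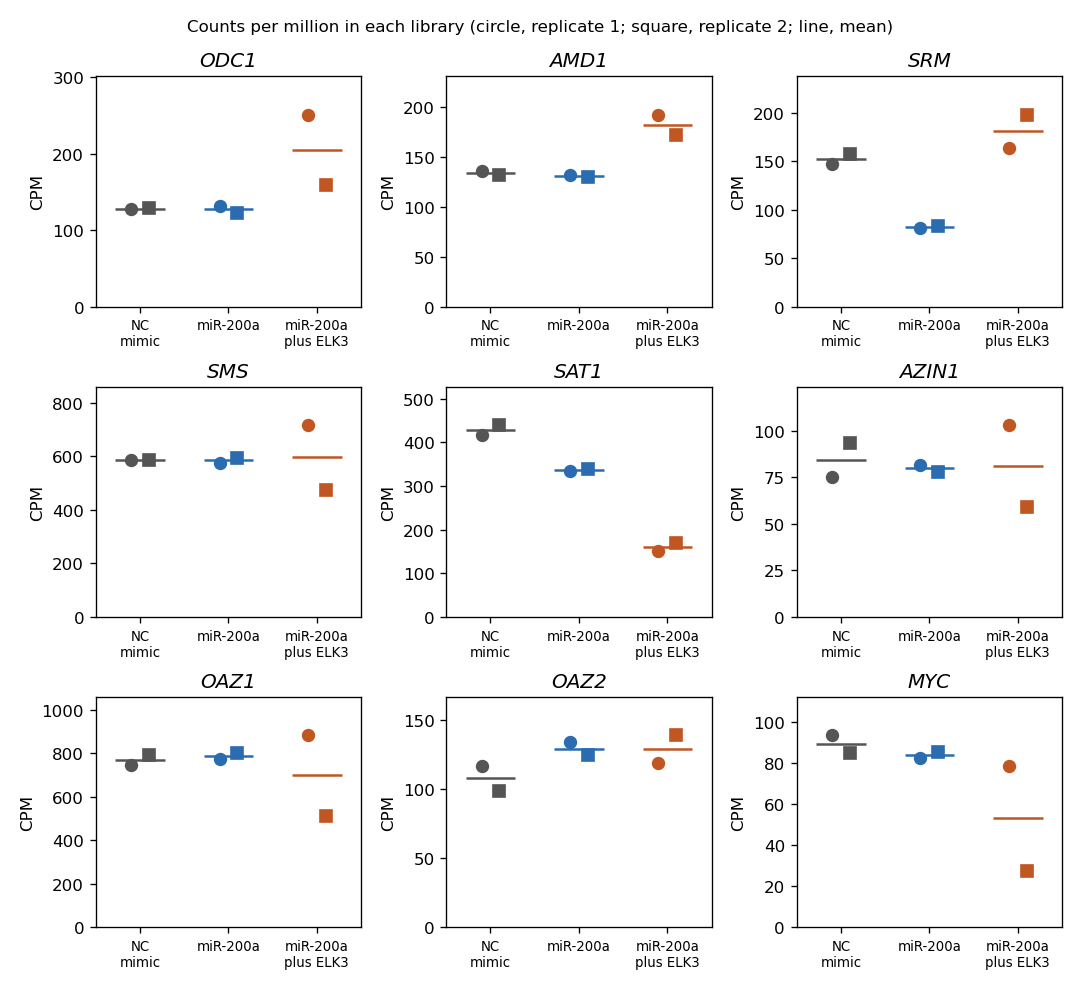
CPM (y axes, each starting at 0) of the 9 genes in the 3 groups (x axes); circles are replicate 1, squares replicate 2 and lines the group means. SRM is lowest in the 2 miR-200a libraries, at 81.4 and 83.1 CPM, SAT1 is lowest in the ELK3-labelled libraries, at 151 and 169 CPM, and MYC is at 27.5 CPM in 1 library of that group and 78.6 CPM in the other.

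The other 8 genes gave 0 calls for miR-200a against the NC mimic by edgeR's quasi-likelihood test at an adjusted p under 0.05, a threshold that 0.269% of the 12650 tested genes passed. At an unadjusted p under 0.05, 1 of the 8 passed, against 9.24% of all tested genes. That gene was SAT1, with 416 and 440 CPM in the NC mimic libraries and 334 and 339 CPM in those of miR-200a. Its log2 fold change was -0.35 (SE 0.12, adjusted p = 0.383), and with only these 2 groups in the model it was -0.33 with an adjusted p of 0.00112. That model also called more of all tested genes than the main one. SAT1 was called when either ELK3-labelled library was left out as well. The number called over all tested genes also changed with the library left out. The ranges of the 2 groups did not overlap for 3 of the 8 genes (SAT1 and AMD1 lower, OAZ2 higher), against 48.9% of all tested genes.

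With miR-200a, ODC1, AMD1, SMS and the regulators were not called, although OAZ2 was higher in both libraries than in either control. ODC1 had 127 and 129 CPM with the NC mimic and 132 and 122 CPM with miR-200a, a log2 fold change of -0.01 (SE 0.19, adjusted p = 0.995). AMD1 had 136 and 132 CPM and then 132 and 130 CPM, a log2 fold change of -0.04 (SE 0.13, adjusted p = 0.971). SMS, which makes spermine from spermidine, had 587 and 586 CPM and then 576 and 593 CPM, so that the synthase of the last step did not share the low values of SRM. MYC itself had 93.3 and 84.8 CPM with the NC mimic and 82.2 and 85.4 CPM with miR-200a, and its log2 fold change was -0.09 (SE 0.34, adjusted p = 0.972). OAZ1 differed by 0.03 (SE 0.2) and AZIN1 by -0.08 (SE 0.23) on the log2 scale, both with overlapping ranges. OAZ2 had 117 and 98.9 CPM with the NC mimic and 134 and 125 CPM with miR-200a, a log2 fold change of 0.26 (SE 0.15, adjusted p = 0.664). The median log2 fold change of the 8 genes was -0.02, the same as over all tested genes.

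**Figure D2:**
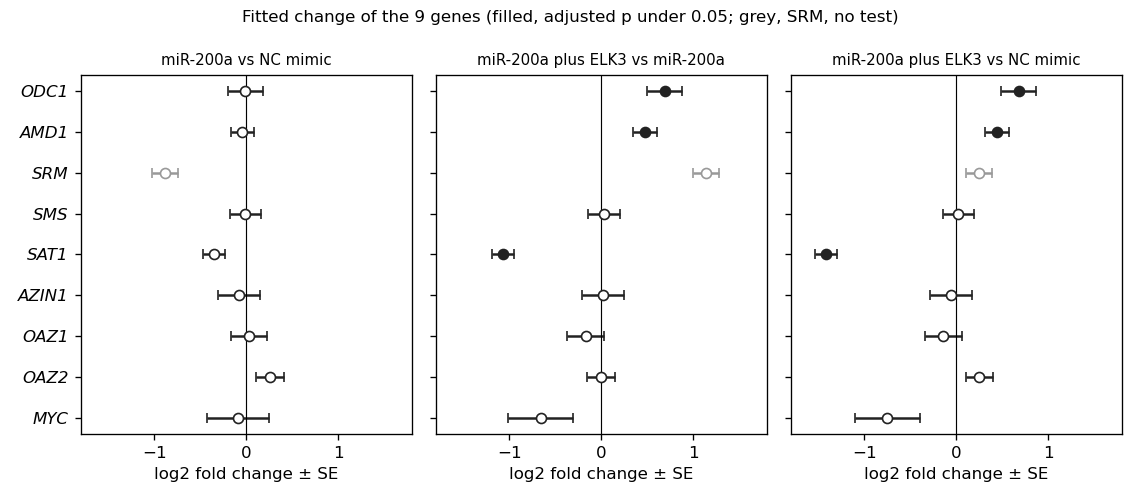
Fitted log2 fold change (x axes) of the 9 genes (y axis) in the 3 comparisons, with bars of 1 standard error. Grey marks SRM, always drawn open and shown without a test because it was chosen for these values. For the other genes, filled points had an adjusted p under 0.05 and open points did not. No gene is filled in the left panel, and ODC1, AMD1 and SAT1 are filled in the other panels, with SAT1 at -1.07 and -1.42.

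In the ELK3-labelled libraries, SAT1 differed in the opposite direction to ODC1 and AMD1. Compared with miR-200a, SAT1, which acetylates polyamines for removal, was lower, and the decarboxylases ODC1 and AMD1, which feed synthesis, were higher. These 3 of the 8 genes were called (2 higher and 1 lower), where 12.9% of all tested genes were called, 7.03% higher and 5.91% lower. The ranges of the 2 groups were apart for 4 of the 8, against 58.2% of all tested genes. The median log2 fold change of the 8 was 0.01, and that of all tested genes 0.02.

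SAT1 had 1608 and 1664 counts with miR-200a and 639 and 718 in the ELK3-labelled libraries, which was 334 and 339 CPM against 151 and 169 CPM. Both libraries of the latter group were below all 4 others. SAT1 fell by 1.07 on the log2 scale (SE 0.12, adjusted p = 0.00154), a ratio of 0.476, a change with 4.97% of the tested genes at or below it. In the 15 alternative analyses the fall ended as a call only without miR-200a replicate 2 (log2 fold change -1.06, adjusted p = 0.0598).

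ODC1 had 635 and 599 counts with miR-200a and 1059 and 675 in the ELK3-labelled libraries, which was 132 and 122 CPM against 251 and 159 CPM. Both ELK3-labelled libraries were above both miR-200a libraries, and replicate 1 was well above replicate 2. ODC1 rose by 0.69 on the log2 scale (SE 0.19, adjusted p = 0.0416), a ratio of 1.61. The size of the rise rested on the replicate, being 0.31 without replicate 1 and 0.95 without replicate 2 of that group. The call was lost in 8 of the 15 alternatives, with adjusted p = 0.0581 after upper-quartile normalization, 0.217 with limma, 0.102 and 0.101 without NC mimic replicate 1 or 2, and 0.214 and 0.288 without miR-200a replicate 1 or 2.

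AMD1 had 637 and 636 counts with miR-200a and 811 and 733 in the ELK3-labelled libraries, which was 132 and 130 CPM against 192 and 172 CPM. The 2 ELK3-labelled libraries were the highest of the 6. AMD1 rose by 0.48 on the log2 scale (SE 0.13, adjusted p = 0.036), a ratio of 1.39. The call was lost in 9 of the 15 alternatives, among them DESeq2 (adjusted p = 0.0723), a replicate block (0.0643), and leaving out NC mimic replicate 1 or 2 (0.0956 and 0.0955) or miR-200a replicate 1 or 2 (0.254 and 0.287).

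The remaining enzyme and the regulators of ODC1 were not called in this comparison. SMS had 717 and 475 CPM in the ELK3-labelled libraries, on either side of the 576 and 593 CPM of miR-200a, and its log2 fold change was 0.03 (SE 0.17, adjusted p = 0.929). OAZ1 had 882 and 514 CPM, also on either side of the 772 and 799 CPM of miR-200a, with a log2 fold change of -0.17 (SE 0.2, adjusted p = 0.606). AZIN1 had 103 and 59 CPM, with a log2 fold change of 0.02 (SE 0.23, adjusted p = 0.963), and its sign changed with the normalization. For these 3 genes replicate 1 was above and replicate 2 below the miR-200a libraries. OAZ2 had 119 and 139 CPM against 134 and 125 CPM, a log2 fold change of 0 (SE 0.15, adjusted p = 0.994). The changes of SMS, OAZ1 and AZIN1 depended on which ELK3-labelled library was left out. Without replicate 1, their log2 fold changes were -0.31, -0.62 and -0.44. Without replicate 2 they were 0.26, 0.14 and 0.34, so the sign of each followed the library left out.

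MYC differed more between the 2 ELK3-labelled libraries than between the groups. It had 332 and 117 counts in them, or 78.6 and 27.5 CPM, against 82.2 and 85.4 CPM with miR-200a. Replicate 2 was thus the lowest of the 6 libraries by a wide margin, while replicate 1 was just below the others. The group mean was 53.1 ± 36.2 CPM (SD, n = 2), the log2 fold change against miR-200a was -0.66 (SE 0.35, adjusted p = 0.226), and MYC was not called. Without replicate 1 the log2 fold change was -1.62, and without replicate 2 it was -0.12. MYC was called, and lower, in 2 of the 15 alternatives and was not called in the other 13. The 2 libraries differed in MYC by -1.51 on the log2 scale, replicate 2 minus replicate 1, and 2.72% of the tested genes lay as far apart between them. AZIN1 and OAZ1 differed by -0.8 and -0.78 in the same sense, ODC1 by -0.66 and SMS by -0.59, while SRM, AMD1, SAT1 and OAZ2 differed by 0.27, -0.16, 0.16 and 0.22.

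**Figure D3:**
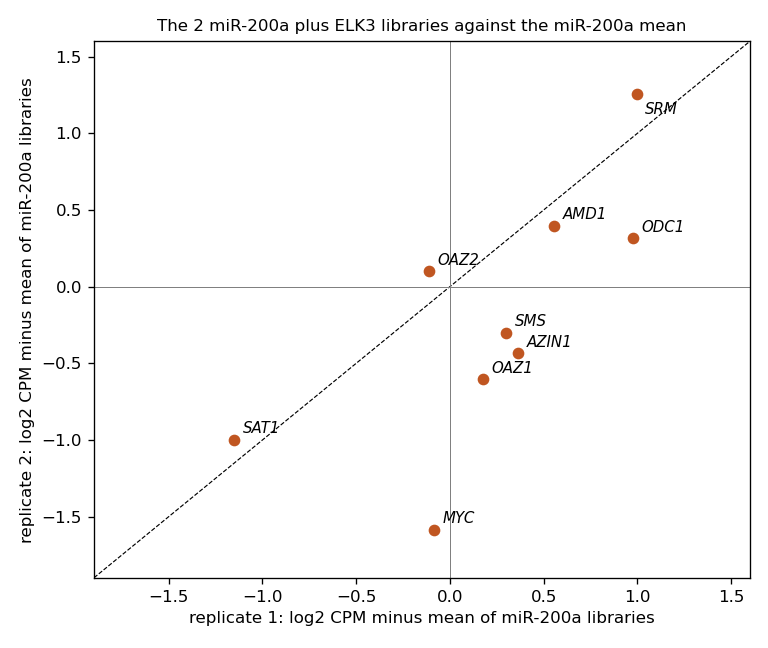
Each of the 9 genes by its log2 CPM minus the mean of the miR-200a libraries in replicate 1 (x axis) and replicate 2 (y axis) of the ELK3-labelled group; the dashed line marks equal values. SAT1 and AMD1 lie near the line, within a replicate difference of 0.16, and MYC lies furthest below it, with a replicate difference of -1.51.

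Against the NC mimic, the ELK3-labelled libraries showed the same 3 genes past the threshold. This comparison shares its ELK3-labelled libraries with the one above and its control libraries with the first, so it is no separate evidence. SAT1 fell by 1.42 on the log2 scale (SE 0.12, adjusted p = 0.000214), from 428 ± 16.6 CPM to 160 ± 12.3 CPM (SD, n = 2 each), a ratio of 0.374. ODC1 rose by 0.68 (SE 0.19, adjusted p = 0.0437), from 128 ± 1.3 to 205 ± 65.2 CPM, and AMD1 rose by 0.44 (SE 0.13, adjusted p = 0.0476), from 134 ± 2.54 to 182 ± 14 CPM. That made 3 of 8 genes called where 12.9% of all tested genes were, 6.92% higher and 5.95% lower, and the ranges were apart for 5 of the 8, against 56.7% of all tested genes.

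SAT1 was called in each of the 15 alternatives of that comparison, with a log2 fold change from -1.51 to -1.34. The ODC1 call was lost in 9 of them, with adjusted p = 0.0519 under a replicate block and 0.236, 0.243, 0.102 and 0.103 without NC mimic replicate 1, NC mimic replicate 2, miR-200a replicate 1 and miR-200a replicate 2. Without replicate 1 of the ELK3-labelled group its log2 fold change was 0.32, and without replicate 2 it was 0.96. The AMD1 call was lost in 11, with adjusted p = 0.0827 under the block and 0.225, 0.277, 0.141 and 0.139 without the same 4 libraries in turn. MYC had a log2 fold change of -0.75 (SE 0.35, adjusted p = 0.175), which was -1.7 without replicate 1 and -0.20 without replicate 2 of the ELK3-labelled group. MYC was called, and lower, in 2 of the 15 alternatives of this comparison. OAZ2 differed by 0.25 (SE 0.15, adjusted p = 0.273), OAZ1 by -0.14, AZIN1 by -0.06 and SMS by 0.02 on the log2 scale. These 4 genes depended on which ELK3-labelled library was left out. Without replicate 1, OAZ2 was at 0.35, OAZ1 at -0.57, AZIN1 at -0.50 and SMS at -0.30. Without replicate 2, OAZ1 was at 0.19, AZIN1 at 0.29 and SMS at 0.28, each with the opposite sign to that without replicate 1, and OAZ2 was at 0.12.

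Ratios of counts within a library put opposed members of the pathway side by side, independently of the scaling between libraries. The ratio of SAT1 to SRM counts was 2.82 and 2.81 after the NC mimic, 4.1 and 4.08 after miR-200a, and 0.921 and 0.854 in the ELK3-labelled libraries. The 3 groups did not overlap, and since SRM is part of the ratio it is a description as well. The ratio of ODC1 to its inhibitor OAZ1 was 0.17 and 0.162 after the NC mimic, 0.171 and 0.153 after miR-200a, and 0.284 and 0.309 in the ELK3-labelled libraries. For this ratio the last 2 libraries were close to each other, although both counts differed between them. AZIN1 to OAZ1 ran from 0.0972 to 0.118 over the 6 libraries with no group apart. Such ratios follow changes between libraries and are not relative amounts of the 2 mRNAs, since the genes can be captured with different efficiency.

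Across the 6 libraries, the genes with log2 CPM most like SRM among 8001 compared were LSM4 (Pearson r = 0.9974), PMPCA (0.9971), MSL3 (0.9965), APC (0.9964) and TOP1 (0.9911). Those most like MYC were C17orf75 (0.9984), EPS15 (0.9984), G0S2 (0.9967), OCIAD1 (0.9965) and C5orf15 (0.9965). Within the 9 genes, MYC was most like OAZ1 (r = 0.92), SMS most like OAZ1 (0.92), and AMD1 was most like ODC1 (0.93) and least like SAT1 (-0.95). The r of MYC with ODC1 was -0.21 and with SRM -0.53. These values describe 6 points that share groups, depth and the wide gap between the ELK3-labelled replicates.

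Genes around the 9 were taken from 4 lists. The list of other polyamine genes held 24 genes of arginine and ornithine supply, methionine salvage, polyamine oxidation, transport and hypusine formation. Hypusine is the modification of the translation factor EIF5A that uses spermidine. ARG1, OAZ3 and MTAP had too few counts, MTAP with at most 2 in any library, and the other 21 genes were tested. None was called for miR-200a against the NC mimic by edgeR, where 2 passed an unadjusted p under 0.05, a share near the 9.24% of all tested genes. DESeq2 called 1 of the list, and it also called more of all tested genes than edgeR. Against miR-200a, 2 of 21 were called in the ELK3-labelled libraries, both higher, which is below the 12.9% of all tested genes that were called, with a list median of -0.01. MAT2A, which makes S-adenosylmethionine, the substrate of AMD1, had 56.1 and 57.3 CPM with miR-200a and 111 and 121 CPM in the ELK3-labelled libraries, a rise of 1.03 on the log2 scale (SE 0.16, adjusted p = 0.00446). ADI1, an enzyme of methionine salvage, had 56.7 and 59.1 CPM and then 87.9 and 122 CPM, a rise of 0.86 (SE 0.18, adjusted p = 0.0157). Neither stayed called when either miR-200a library was left out, and with limma the list gave 0 calls. The number called over all tested genes also changed with the library left out, and was lower with limma.

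Compared with the NC mimic, 5 of the 21 were called, all higher, where 12.9% of all tested genes were called and 6.92% were higher, with a list median of 0.24 against 0.01 over all tested genes. These were MAT2A (log2 fold change 0.89), ADI1 (1.03), and DOHH, EIF5A and SLC3A2. DOHH, which completes hypusine on EIF5A, had 8.91 and 5.87 CPM after the NC mimic, 12.5 and 15.7 after miR-200a and 19.9 and 25.9 in the ELK3-labelled libraries, with a log2 fold change of 1.59 (SE 0.3, adjusted p = 0.00943). EIF5A rose by 0.48 (SE 0.13, adjusted p = 0.0355) and SLC3A2, a subunit of amino acid transporters linked to polyamine export, by 0.44 (SE 0.13, adjusted p = 0.0489). For EIF5A the log2 fold change was 0.26 with miR-200a alone and 0.22 from miR-200a to the ELK3-labelled libraries, neither called. Against the NC mimic, the EIF5A call was lost in 9 of the 15 alternatives and the SLC3A2 call in 12. The calls of MAT2A and ADI1 were lost in 3 each and that of DOHH in 2. On the side of breakdown, the oxidase SMOX differed by -0.48 (adjusted p = 0.232) and SAT2 by -0.41 (adjusted p = 0.285), and neither passed. Leaving out a library changed the number of calls in the list, down to none. It also changed the number over all tested genes.

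The partners, antagonists, cofactors and regulators of MYC made up a list of 23 genes, 21 of them tested. MYCN, with at most 2 counts in any library, and MYCL, with at most 4, had too few counts to be tested. With miR-200a alone 0 of the 21 were called by edgeR or DESeq2, where edgeR called 0.269% of all tested genes. At an unadjusted p under 0.05, 0 passed, against 9.24% of all tested genes. Against miR-200a, 5 of 21 were called in the ELK3-labelled libraries, 3 higher and 2 lower, against 12.9% of all tested genes. MXI1, which competes with MYC for MAX, had 92.4 and 99.2 CPM with miR-200a and 43.6 and 46.5 CPM in the ELK3-labelled libraries and fell by 1.09 on the log2 scale (SE 0.16, adjusted p = 0.00429). MLXIPL, a glucose-responsive factor of the same family, fell by 1.38 (SE 0.28, adjusted p = 0.0137). MXD3, another MAX partner and repressor, rose by 0.56 (adjusted p = 0.0394), CIP2A, which protects MYC from dephosphorylation and is listed here under its older symbol KIAA1524, by 0.55 (adjusted p = 0.0348), and WDR5, a chromatin cofactor of MYC, by 0.57 (adjusted p = 0.0462). Against the NC mimic, 2 were called, MXI1 (log2 fold change -0.94, adjusted p = 0.00697) and the ubiquitin ligase subunit SKP2 (0.68, adjusted p = 0.0386), a share below the 12.9% of all tested genes. SKP2 differed by 0.36 with miR-200a alone and by 0.32 from miR-200a to the ELK3-labelled libraries, neither called. Against miR-200a, the calls of MXD3 and CIP2A were lost in 8 of the 15 alternatives each and that of WDR5 in 12. Those of MXI1 and MLXIPL were lost in 3 each. Against the NC mimic, the MXI1 call was lost in 3 and the SKP2 call in 8. The list gave 0 calls with limma in both comparisons, where limma also called fewer of all tested genes. Leaving out a library changed the number of calls in the list, down to none in either comparison. It also changed the number over all tested genes.

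Textbook MYC-induced genes numbered 24, with 21 tested, and 10 of these were higher and 0 lower in the ELK3-labelled libraries than with miR-200a, where 7.03% of all tested genes were called higher and 5.91% lower. The list median was 0.52 on the log2 scale against 0.02 over all tested genes. CDC25A, a cell cycle phosphatase, had 20.8 and 23.2 CPM with miR-200a and 58 and 60.9 CPM in the ELK3-labelled libraries, a rise of 1.43 (SE 0.18, adjusted p = 0.00236). The nucleolar proteins NOP56 and NCL rose by 1.17 (adjusted p = 0.00288) and 0.88 (adjusted p = 0.00433), the nucleoside diphosphate kinase NME1 by 0.85 (adjusted p = 0.00469) and the mitochondrial chaperone HSPD1 by 0.77 (adjusted p = 0.00644). Relative to the NC mimic, 8 of 21 were higher and 0 lower, against 6.92% and 5.95% of all tested genes, with a median of 0.38, and SLC7A5, an amino acid transporter subunit, rose by 1.15 (SE 0.16, adjusted p = 0.00238). SLC7A5 was already higher by 0.82 with miR-200a alone (adjusted p = 0.0715). From miR-200a to the ELK3-labelled libraries it differed by 0.33 (adjusted p = 0.167), and neither step was called. With miR-200a alone the list gave 0 calls by edgeR, where 0.269% of all tested genes were called, and 1 by DESeq2. DESeq2 also called more of all tested genes than edgeR. At an unadjusted p under 0.05, 4 of the 21 passed, against 9.24% of all tested genes. Of these, NME1, TFRC and HSPD1 were lower and SLC7A5 was higher. The list median was -0.06. In the comparisons of the ELK3-labelled libraries, leaving out a library changed the number of calls in the list, down to none in either. It also changed the number over all tested genes.

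Of 6 textbook MYC-repressed genes, 4 were tested and 3 were lower in the ELK3-labelled libraries than with miR-200a, where 5.91% of all tested genes were called lower. NDRG1, a stress- and differentiation-linked gene, had 2460 and 2410 CPM with miR-200a and 930 and 982 CPM in the ELK3-labelled libraries, and it fell by 1.35 on the log2 scale (SE 0.1, adjusted p = 0.000178). It was called in all 15 alternatives of this comparison. The cyclin-dependent kinase inhibitor CDKN1C had 20.3 and 23.5 CPM after the NC mimic, 56.9 and 50.5 after miR-200a, and 30.3 and 24.7 in the ELK3-labelled libraries. It rose by 1.3 with miR-200a (SE 0.19, adjusted p = 0.0328) and was lower by 0.97 in the ELK3-labelled libraries than with miR-200a (SE 0.19, adjusted p = 0.0122). GADD45A, a growth arrest gene, fell by 0.56 against miR-200a (adjusted p = 0.0472). In that comparison the GADD45A call was lost in 8 of the 15 alternatives and the CDKN1C call in 3. Against the NC mimic, NDRG1 fell by 1.18 (adjusted p = 0.000246) and GADD45A by 0.72 (adjusted p = 0.0199). There NDRG1 stayed called in all 15 alternatives, and the GADD45A call was lost in 6. Against miR-200a or the NC mimic, the list gave fewer calls when either library of that group was left out. The rise of CDKN1C with miR-200a was not called when any library of that comparison was left out. Leaving out a library also changed the number of calls over all tested genes.

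**Figure D4:**
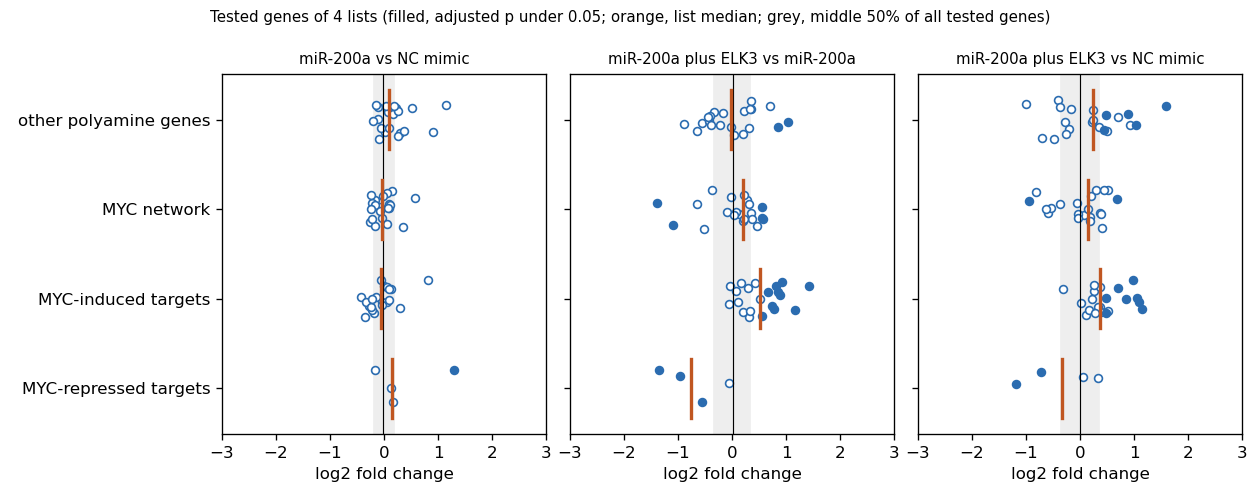
Log2 fold change (x axes) of the tested genes of the 4 lists (y axis) in the 3 comparisons; filled points had an adjusted p under 0.05, orange lines are list medians, the black line is the median and the grey band the middle 50% of all tested genes. In the middle panel the MYC-induced genes have a median of 0.52 and 10 filled points, all to the right, and the MYC-repressed genes a median of -0.76 and 3 filled points, all to the left.

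The counts have limits that bear on single genes. RefSeq lists 4 pseudogenes of AMD1, 3 of SRM and 1 each of SMS and OAZ1, of which 0 are listed among the counted symbols, and how reads shared with such copies were assigned is not given in the sources used here. SRM lies at chr1:11054584-11060024, AMD1 at chr6:110874770-110895713 and SAT1 at chrX:23783173-23786226 in GENCODE release 29 on GRCh38, with no annotated gene overlapping them. ODC1, at chr2:10439968-10448504, contains the small nucleolar RNA SNORA80B. AZIN1, OAZ1 and OAZ2 overlap genes on the opposite strand, from which their reads cannot be told apart unless strand was used in counting. OAZ1 also overlaps AC005258.1 on its own strand, where strand would not tell the reads apart.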

How the data were processed

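Counts in the 6 libraries were deposited by the authors as whole numbers of reads per gene symbol, without normalization. The submitters' processing notes name Bowtie2, edgeR and hg19 with no role, and the study names ExDEGA. The counting program, the strand setting and the annotation are not given in the sources used here. Each library listed 25737 lines and 24462 symbols, and the 286 symbols on several lines were summed.

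Groups and replicate numbers were taken from the labels. Genes were filtered by filterByExpr with a minimum count of 10 (12650 kept) and fitted in R 4.3.3 with edgeR 4.0.16, with TMM factors, all 6 libraries in a single model with 3 residual degrees of freedom and the quasi-likelihood test. Benjamini-Hochberg adjustment ran over all tested genes, with calls at an adjusted p under 0.05. CPM used library sizes over the tested genes times the TMM factors, and the SE of a log2 fold change was its size divided by the square root of F. The script was tested on simulated data. Alternatives used DESeq2 1.42.0, limma 3.58.1, other filters and normalizations, only the compared groups, a replicate block, the study's own thresholds (unadjusted p under 0.05, fold change over 1.5, normalized value over 3) and each library left out in turn.

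The 9 genes and the 4 lists were chosen with earlier results of these data known, so the counts over them are descriptions. From each list, up to 6 called genes with the smallest adjusted p were named, and for SRM and MYC the 5 genes with the highest Pearson r at a mean log2 CPM of at least 4. Sequences came from RefSeq and GENCODE on GRCh38, read by gene name, since the submitters' notes name hg19. Promoter sequences of MYC and AZIN1 are not used here.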

Additional observations from a re-analysis of the deposited data

How the results depend on the processing

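For the 8 genes other than SRM, the 3 comparisons gave 24 values, and the 15 alternatives gave 360 in all. Of these, 267 kept their direction and side of the threshold, 38 lost a call, 13 gained one in the same direction and 42 changed sign. None of the 42 had been called, and 4 of them were called with the opposite sign, all without an ELK3-labelled library (SMS in both comparisons and AZIN1 against miR-200a without replicate 1, OAZ1 against the NC mimic without replicate 2). Same-numbered libraries did not pair, with correlations of their deviations of -0.004, -0.033 and -0.104 across genes. With 2 libraries a group and no residual spread in a group left with 1, leave-one-out fits assume that the lone library varies like the other groups, and the cause of the changes was not tested.

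For the 8 genes other than SRM, a model of only the 2 compared groups gave 1 call in each comparison. The main analysis gave 0 for miR-200a against the NC mimic. It gave 3 for the ELK3-labelled libraries against miR-200a and 3 for these against the NC mimic. Upper-quartile normalization and limma gave 1 and 1 in the last 2 comparisons, and library totals and the replicate block 1 in the last. Leaving out a library gave 0 to 1, 0 to 7 and 1 to 8. Other polyamine genes gave 1, 4 and 6 without a filter, 1 in the first with DESeq2, 0 and 1 in the last 2 with limma, 3, 1 and 3 with only the compared groups, 3 in the last with the block, 2 and 4 in the first 2 with the study's thresholds, and 0 to 3, 0 to 11 and 0 to 9 leaving out a library. The MYC network gave 2 and 1 in the last 2 comparisons with upper-quartile normalization and also with the block, 0 and 0 with limma, 1, 2 and 1 with only the compared groups, 3 and 4 in the last 2 with the study's thresholds, and 0 to 1, 0 to 12 and 0 to 10 leaving out a library. MYC-induced genes gave 1 in the first without a filter, with DESeq2 and with the study's thresholds, 1 and 2 in the last 2 with limma, 4 and 5 in the first and last with only the compared groups, and 0 to 4, 0 to 16 and 0 to 15. MYC-repressed genes gave 0, 1 and 1 with limma, 2 and 1 in the first and last with only the compared groups, 0 in the first with the block, and 0 to 2, 1 to 4 and 1 to 2. All tested genes gave 34, 1637 and 1629 calls, 230, 2490 and 2525 without a filter, 4, 107 and 391 with limma, 983, 542 and 587 with only the compared groups, 88 in the first with DESeq2, 578 and 2455 in the first and last with the study's thresholds, 13 in the first with the replicate block, and 0 to 1010, 31 to 4684 and 96 to 4675 leaving out a library, the highest of the last 2 without replicate 1 of the ELK3-labelled group. The block with the numbers of that group crossed, chosen after seeing the data, gave 22, 1644 and 1661. Under the block the other calls of the 8 genes did not change beyond those printed with the results.

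The values that changed sign had not been called in the main analysis. For miR-200a against the NC mimic, ODC1 and SMS each gave 0.02 without a filter, 0 with upper-quartile normalization, DESeq2 or a minimum of 10 counts in each library, and 0.01 with library totals, limma or only the compared groups. Leaving out a library, ODC1 ran from -0.06 to 0.05, SMS from -0.03 to 0.02, AZIN1 from -0.23 to 0.09 and OAZ1 from -0.01 to 0.08. Against miR-200a, SMS gave -0.04 with upper-quartile normalization and -0.03 with limma, and AZIN1 gave -0.05, -0.01, 0, -0.11 and -0.02 with upper-quartile normalization, library totals, DESeq2, limma and the crossed block, while leaving out a library gave -0.31 to 0.26 for SMS, -0.44 to 0.34 for AZIN1, -0.62 to 0.14 for OAZ1 and -0.15 to 0.09 for OAZ2. Against the NC mimic, SMS gave -0.04 and -0.02 with upper-quartile normalization and limma, and leaving out a library gave -0.30 to 0.28 for SMS, -0.50 to 0.29 for AZIN1 and -0.57 to 0.19 for OAZ1.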
